A study of Arabidopsis thaliana with 40 samples.

Results

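The response of the Arabidopsis thaliana line cyp20-3 to 6 h of high light was read from 8 of the 40 arrays of the series, chosen by their titles: 4 biological replicates of cyp20-3 in normal light (NL) and 4 after high light (HL). Soil-grown plants, 4 weeks or 28 days old, had been kept under 8 h of light and 16 h of darkness a day. The light was 80 µmol quanta m-2 s-1 in NL, HL meant 6 h at 800 in the same unit, and RNA came from the shoot. WT and the lines 2cysprx, oastlB and serat2;1, with 8 arrays each from plants grown and treated alike, were used where the response of cyp20-3 was set against another. The labels name the mutated gene of cyp20-3 but neither the allele nor the number of independent lines. Levels are log2 intensities, differences are HL minus NL on the log2 scale ± standard error from the limma fit, and the values of the 4 arrays of a group are given in the order of replicates 1 to 4. The values carry no detection calls, so a low level is given as a level and not as absence, and levels are compared only within a gene.

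CYP20-3 is a cyclophilin of the chloroplast stroma, a peptidyl-prolyl isomerase that is reduced by thioredoxin. It is known to take part in assembling the cysteine synthase complex of serine acetyltransferase and O-acetylserine(thiol)lyase, and to bind 12-oxo-phytodienoic acid (OPDA), the plastid-made precursor of jasmonate. High light loads the photosynthetic electron transport chain beyond what carbon fixation can use, and leaves are known to answer with photoprotection, antioxidant enzymes, chaperones, sugar and starch metabolism and hormone signals.

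The targeted transcript was low on all 8 cyp20-3 arrays. CYP20-3 (AT3G62030) was at 6.73, 6.37, 6.23 and 6.55 in NL and 6.73, 6.41, 6.77 and 5.97 in HL, and on the 32 arrays of the other genotypes between 10.41 and 10.76. The cyp20-3 arrays thus all lay far below the rest, 4.12 lower in the mean, and the NL and HL arrays of the line overlapped, with a difference of 0.00 ± 0.11. Where the mutation lies relative to the probe set is not stated. A principal component carrying 41.9% of the variance separated the 4 HL arrays, with scores between 27.04 and 32.30, from the 4 NL arrays, between -33.07 and -27.45. The next, with 12.3%, spread the NL arrays, with replicate 2 at -34.29 and replicate 4 at 27.60, while the HL arrays lay between -4.72 and 3.91.

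Of 27826 genes tested, 2457 (8.83%) rose and 2502 (8.99%) fell in cyp20-3 at an adjusted p under 0.05. The larger changes were mostly rises: 363 genes rose and 94 fell by at least 2-fold, and for 359 and 90 of these the 4 HL values did not overlap the 4 NL values. Of all 27826 genes, the HL values lay wholly above the NL values for 2932 and wholly below for 3299. The genes named as largest rises or falls, over all genes or within a list, were picked among called genes without overlap, so their lack of overlap is no further support. The median difference over all genes was -0.03, beside which the medians of gene lists given here can be read. The counts of rises and falls in each list are likewise to be read beside the shares of 8.83% and 8.99%. In whole shoots fewer cells of a type and less RNA per cell cannot be told apart. The largest rise was 24-fold, that of LTP4, and the largest fall that of a microRNA precursor, MIR169m.

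Among the 20 genes with the largest rises were lipid transfer proteins, a sugar phosphate carrier, enzymes of cell wall and starch metabolism and transcription factors. LTP4 (AT5G59310), a lipid transfer protein of the abscisic acid response, was at 3.76, 3.21, 2.74 and 2.54 in NL and 7.91, 7.58, 6.80 and 8.29 in HL, and rose by 4.59 ± 0.43 (adjusted p = 7.73e-10). LTP3 (AT5G59320), a close relative, was at 2.98, 2.62, 2.23 and 2.73 in NL and 6.97, 6.66, 6.57 and 7.40 in HL, and rose by 4.26 ± 0.37 (adjusted p = 1.3e-10). Whether the probe sets of such close relatives share hybridization was not tested. GPT2 (AT1G61800), which carries glucose 6-phosphate across the plastid envelope, was at 3.91, 4.40, 4.56 and 3.90 in NL and 8.10, 8.49, 8.46 and 8.34 in HL, and rose by 4.16 ± 0.26 (adjusted p = 9.47e-14). CSLA01 (AT4G16590), a cellulose synthase-like glycosyltransferase, was at 3.66, 2.73, 4.23 and 4.22 in NL and 7.65, 7.91, 7.87 and 7.97 in HL, and rose by 4.14 ± 0.37 (adjusted p = 2.4e-10). For all 4 genes each HL array lay above each NL array, and the gap between the groups was wider than either group's own range. Other rises among the 20 largest were those of BAM5 (AT4G15210), a cytosolic beta-amylase (2.97 ± 0.44), ST2A (AT5G07010), a sulfotransferase that inactivates hydroxyjasmonate (2.98 ± 0.29), HFR1 (AT1G02340) and PIL1 (AT2G46970), bHLH factors of the shade response (3.00 ± 0.26 and 2.81 ± 0.28), and HSP70 (AT3G12580), a cytosolic chaperone (2.81 ± 0.34).

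Of the 6 largest falls, 3 were of precursors of the microRNA family miR169, which targets subunits of the transcription factor NF-Y. MIR169m (AT3G26818) was at 4.77, 4.76, 4.93 and 4.12 in NL and 2.16, 1.86, 1.89 and 2.18 in HL, and fell by 2.63 ± 0.33 (adjusted p = 2.46e-07). MIR169k (AT3G26815) fell by 2.16 ± 0.40 and MIR169j (AT3G26813) fell by 1.79 ± 0.33. None of the 3 had an HL value above an NL value. These precursors are near-identical copies with adjacent locus codes, so their single values are uncertain, and the mature microRNA was not measured. Further falls were those of PR4 (AT3G04720), a chitin-binding defence protein (-1.81 ± 0.22), and of PORA (AT5G54190), a light-labile protochlorophyllide oxidoreductase (-1.76 ± 0.24).

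**Figure D1:**
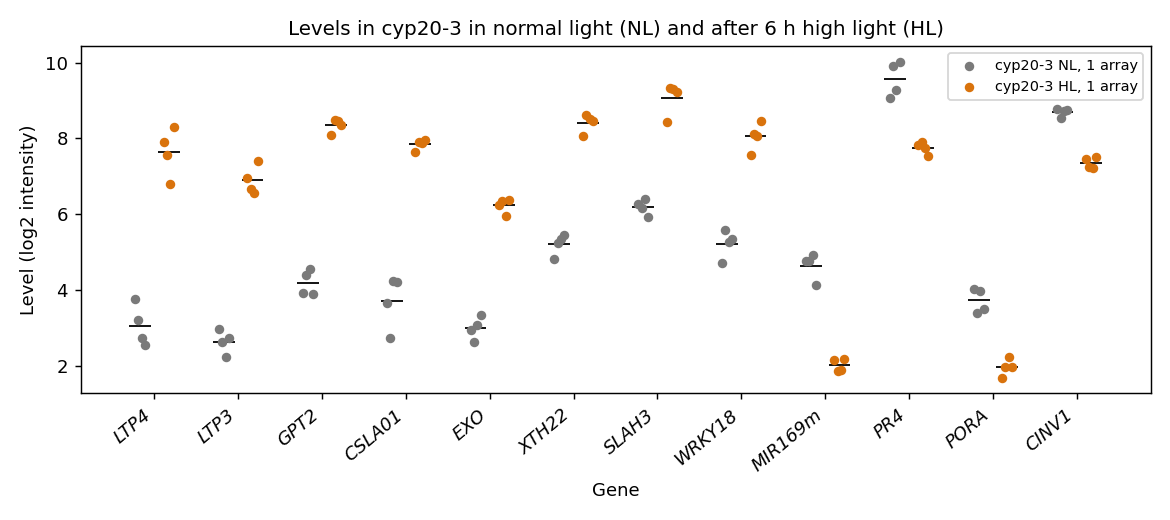
Log2 level of 12 genes on the 8 cyp20-3 arrays, with 1 point per array, NL in grey and HL in orange, and a bar at each group mean. The HL arrays lie above the NL arrays for LTP4, LTP3, GPT2, CSLA01, EXO, XTH22, SLAH3 and WRKY18 and below them for MIR169m, PR4, PORA and CINV1, with no overlap for any of the 12. The rule for naming the largest changes required no overlap.

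Transcripts of a WRKY factor, an anion channel and a growth protein rose far more in cyp20-3 than in WT, 2cysprx or oastlB. WRKY18 (AT4G31800), a WRKY transcription factor of defence regulation, was at 4.70, 5.58, 5.27 and 5.36 in NL and 7.57, 8.11, 8.07 and 8.46 in HL, and rose by 2.83 ± 0.23 (adjusted p = 2.97e-11). SLAH3 (AT5G24030), an anion channel that passes nitrate, was at 6.28, 6.17, 6.39 and 5.92 in NL and 8.45, 9.34, 9.29 and 9.22 in HL, and rose by 2.89 ± 0.19 (adjusted p = 1.68e-13). EXO (AT4G08950), EXORDIUM, a growth protein of the brassinosteroid response, was at 2.96, 2.63, 3.08 and 3.33 in NL and 6.25, 6.36, 5.95 and 6.38 in HL, and rose by 3.24 ± 0.24 (adjusted p = 3.62e-12). In each of the 3 the HL arrays of cyp20-3 lay above its NL arrays with no overlap, although SLAH3 was lower on HL replicate 1 than on the other 3. WRKY18 averaged 5.42 ± 0.14 (SD, n = 4) in NL and 5.59 ± 0.22 in HL in WT, against 5.23 ± 0.37 and 8.06 ± 0.37 in cyp20-3.

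The difference between these responses was tested directly, as the response of cyp20-3 minus that of another genotype, whose 4 groups share no array. It was higher in cyp20-3 than in WT for 175 genes (0.629%) and lower for 63 (0.226%). For WRKY18 the response was larger by 2.66 ± 0.33 (adjusted p = 1.49e-05) than in WT, by 2.79 ± 0.33 (adjusted p = 1.33e-06) than in 2cysprx and by 2.63 ± 0.33 (adjusted p = 4.39e-06) than in oastlB. For SLAH3 it was larger by 2.26 ± 0.26 (adjusted p = 1.28e-05), 2.63 ± 0.26 (adjusted p = 9e-08) and 2.3 ± 0.26 (adjusted p = 1.18e-06) in the same order. For EXO it was larger by 2.07 ± 0.34 (adjusted p = 0.000581), 2.78 ± 0.34 (adjusted p = 2.45e-06) and 2.71 ± 0.34 (adjusted p = 4.42e-06). The 3 comparisons share the cyp20-3 arrays, so they are not independent of each other.

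Of the cell wall and touch genes, XTH22, XTH24 and XTH9 rose more in cyp20-3 than in each of the 3 other lines tested. Of 18 measured, 8 rose and 4 fell, with a median of 0.21. The response was higher than that of WT for 3 and lower for 1, higher than that of 2cysprx for 5 and lower for 3, and higher than that of oastlB for 4 and lower for 0. Over all genes the shares higher and lower were 0.629% and 0.226% against WT, 2.69% and 1.84% against 2cysprx, and 1.33% and 0.963% against oastlB. XTH22 (AT5G57560), the touch-induced xyloglucan endotransglucosylase also called TCH4, was at 4.83, 5.24, 5.35 and 5.46 in NL and 8.07, 8.62, 8.51 and 8.45 in HL. It rose by 3.19 ± 0.20 (adjusted p = 7.78e-14), which was 2.15 ± 0.28 (adjusted p = 3.02e-05) more than in WT, 2.60 ± 0.28 (adjusted p = 2.37e-07) more than in 2cysprx and 2.59 ± 0.28 (adjusted p = 6.25e-07) more than in oastlB. XTH24 (AT4G30270) was at 6.97, 6.88, 6.61 and 6.84 in NL and 8.73, 8.95, 8.60 and 8.68 in HL, and its rise exceeded that of WT by 1.46 ± 0.20 (adjusted p = 0.000104), that of 2cysprx by 1.5 ± 0.20 (adjusted p = 1.02e-05) and that of oastlB by 1.53 ± 0.20 (adjusted p = 1.04e-05). XTH9 (AT4G03210) rose by 1.08 ± 0.13, exceeding WT by 0.86 ± 0.18 (adjusted p = 0.0124), 2cysprx by 1.25 ± 0.18 (adjusted p = 3.95e-05) and oastlB by 0.81 ± 0.18 (adjusted p = 0.00965), the last lost when these groups were fitted alone (adjusted p = 0.0515). XTH33 (AT1G10550) rose by 1.59 ± 0.23, exceeding 2cysprx by 1.56 ± 0.32 (adjusted p = 0.00254) and oastlB by 1.34 ± 0.32 (adjusted p = 0.0171), the latter lost without cyp20-3 HL replicate 4 (adjusted p = 0.0558), while its difference from WT of 1.15 was called only when these groups were fitted alone (adjusted p = 0.0419). The calmodulin-like CML24 (AT5G37770), another touch gene, rose by 1.91 ± 0.25, exceeding 2cysprx by 1.32 ± 0.36 (adjusted p = 0.0242), a call lost without NL replicates 1 or 3 or HL replicates 2 or 3 of cyp20-3 or NL replicate 2 or HL replicates 2 or 3 of 2cysprx, each left out alone, and when these groups were fitted alone (adjusted p = 0.1), and without a called difference from WT (0.45) or oastlB (0.18). Not every touch gene was called: CML12 (AT2G41100), also known as TCH3, differed by 0.13 ± 0.22 and XTH23 (AT4G25810) by -0.07 ± 0.21, neither called. All 4 called falls were of expansins, which loosen walls, among them EXPA8 (AT2G40610, -0.93 ± 0.14), EXPA11 (AT1G20190, -0.50 ± 0.12) and EXPA15 (AT2G03090, -0.86 ± 0.17). The members with a lower response were expansins too: EXPA15 was -1.12 ± 0.24 (adjusted p = 0.0157) relative to WT, lost without WT NL replicate 4 (adjusted p = 0.0501). EXPA8 and EXPA11 were -1.05 ± 0.20 (adjusted p = 0.00102) and -0.76 ± 0.17 (adjusted p = 0.00425) relative to 2cysprx. EXPA1 (AT1G69530), at -0.36 ± 0.11, was the fourth called fall, and it was -0.52 ± 0.16 (adjusted p = 0.0495) relative to 2cysprx. The fall of EXPA1 was lost without NL replicates 1 or 3 or HL replicates 2 or 4 or with the 8 arrays fitted alone (adjusted p up to 0.0796), and its difference from 2cysprx when any of 11 of the 16 arrays was left out, with either replicate block, with cyclic loess or with these groups fitted alone (adjusted p up to 0.126).

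**Figure D2:**
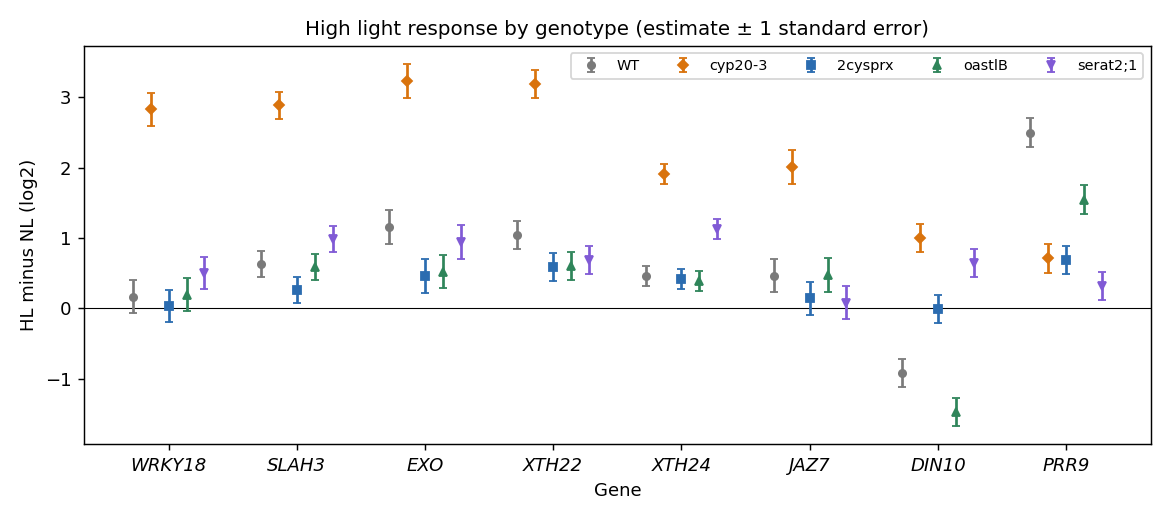
High light response (HL minus NL, log2) of 8 genes in WT, cyp20-3, 2cysprx, oastlB and serat2;1, with bars of 1 standard error from the fit (n = 4 arrays per group). For WRKY18, SLAH3, EXO, XTH22, XTH24, JAZ7 and DIN10 cyp20-3 has the highest point, and for PRR9 WT has it.

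Jasmonate genes rose at several steps. Jasmonate is made from a plastid fatty acid through OPDA, is conjugated to isoleucine, and is perceived by the receptor COI1, which then has JAZ repressors degraded. Because JAZ genes are themselves targets of the freed factors, their transcripts are a common readout of the pathway. Over the 5 jasmonate lists, 23 of 58 genes rose and 3 fell in cyp20-3, with a median of 0.37. Without NL replicate 1 there were 5 falls. In WT, where 10.3% of all genes rose and 9.58% fell, 11 of the 58 rose and 3 fell, with a median of 0.14. The broad rise was not particular to cyp20-3: in oastlB 26 rose and 0 fell (median 0.49). In 2cysprx 11 rose and 0 fell (0.22), and in serat2;1 11 rose and 1 fell (0.16). Of all 27826 genes, 2198, 1246 and 1541 rose in these lines in that order. Tested directly, the response of cyp20-3 was higher than that of WT for 2 of the 58 and lower for 0.

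Among the enzymes, LOX4 (AT1G72520), a 13-lipoxygenase of the first step, was at 6.08, 6.25, 6.26 and 6.88 in NL and 7.83, 7.87, 7.64 and 8.03 in HL, and rose by 1.48 ± 0.18 (adjusted p = 2.26e-07). LOX3 (AT1G17420), of the same family, rose by 0.75 ± 0.13. OPR3 (AT2G06050), the peroxisomal OPDA reductase, was at 5.83, 5.84, 6.06 and 6.18 in NL and 6.74, 6.85, 6.81 and 7.05 in HL, and rose by 0.89 ± 0.12 (adjusted p = 8.38e-07). OPCL1 (AT1G20510), which activates the product for beta-oxidation, rose by 0.64 ± 0.09. These 4 did not overlap between the groups. The allene oxide cyclase AOC3 (AT3G25780) rose by 0.96 ± 0.24, with overlapping groups, and the allene oxide synthase AOS (AT5G42650) differed by 0.28 ± 0.11, which was not called with all arrays but was under 4 alternatives (adjusted p between 0.0377 and 0.0477). JAR1 (AT2G46370), the enzyme that joins jasmonate to isoleucine, was the 1 called fall of the 14, at 6.24, 6.18, 6.28 and 6.23 in NL and 5.94, 5.86, 5.94 and 5.83 in HL, and fell by 0.34 ± 0.08 (adjusted p = 0.0015). The response of JAR1 minus that of oastlB was -0.49 ± 0.11 (adjusted p = 0.00977), and minus that of WT -0.38, which was called only among the brighter genes (adjusted p = 0.046). The rise of LOX4 exceeded that of 2cysprx by 1.59 ± 0.26 (adjusted p = 0.000182). With all genes tested, the response of cyp20-3 differed from that of WT for 0 of the 14.

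Of the 12 JAZ repressors, 8 rose and 1 fell. JAZ7 (AT2G34600) was at 1.77, 1.51, 1.60 and 2.08 in NL and 4.12, 4.09, 3.00 and 3.79 in HL, and rose by 2.01 ± 0.24 (adjusted p = 8.58e-08). JAZ9 (AT1G70700) was at 8.03, 7.81, 7.89 and 8.45 in NL and 9.95, 10.00, 9.82 and 9.85 in HL, and rose by 1.86 ± 0.19 (adjusted p = 6.44e-09). JAZ5 (AT1G17380) was at 3.79, 3.37, 2.97 and 3.56 in NL and 5.05, 5.0, 4.87 and 5.12 in HL, and rose by 1.59 ± 0.18 (adjusted p = 4.77e-08). All HL values of these 3 lay above all NL values. JAZ6 (AT1G72450) was at 7.16, 7.09, 7.10 and 7.56 in NL and 8.50, 8.78, 8.27 and 8.83 in HL, and rose by 1.37 ± 0.13 (adjusted p = 1.96e-09). JAZ10 (AT5G13220) was at 3.95, 3.38, 3.5 and 3.55 in NL and 5.13, 4.64, 4.79 and 5.03 in HL, and rose by 1.3 ± 0.28 (adjusted p = 0.000829). JAZ8 (AT1G30135) rose by 0.93 ± 0.23 and JAZ2 (AT1G74950) rose by 0.66 ± 0.11. JAZ1 (AT1G19180) rose by 0.51 ± 0.18 (adjusted p = 0.0449), a call lost without NL replicates 1, 2 or 3 or HL replicates 1, 2 or 4, each left out alone (adjusted p up to 0.151). JAZ11 (AT3G43440) was the exception, at 7.10, 6.88, 6.68 and 7.10 in NL and 6.44, 6.55, 6.62 and 6.42 in HL, and fell by 0.44 ± 0.11 (adjusted p = 0.0059). JAZ3 (AT3G17860), JAZ4 (AT1G48500) and JAZ12 (AT5G20900) differed by -0.14 ± 0.12, 0.18 ± 0.12 and 0.13 ± 0.08 and were not called.

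The JAZ response exceeded that of WT for 2 members. JAZ7 rose more by 1.54 ± 0.34 (adjusted p = 0.0159) and JAZ2 by 0.80 ± 0.16 (adjusted p = 0.00588), where WT itself changed by -0.14 ± 0.11. The call for JAZ7 was lost without cyp20-3 HL replicate 2 (adjusted p = 0.053) and when these groups were fitted alone (adjusted p = 0.0982). Against 2cysprx, JAZ7 rose more by 1.87 ± 0.34 (adjusted p = 0.0006), JAZ6 by 1.23 ± 0.19 (adjusted p = 8.76e-05), JAZ5 by 1.15 ± 0.26 (adjusted p = 0.00535) and JAZ9 by 1.09 ± 0.27 (adjusted p = 0.0143). The difference was also called for JAZ2, at 0.62 ± 0.16 (adjusted p = 0.0168), lost when these groups were fitted alone, and for JAZ10, at 1.48 ± 0.40 (adjusted p = 0.0225), lost without NL replicate 2 of either line. Against oastlB it was called for JAZ7, at 1.53 ± 0.34 (adjusted p = 0.00743), and for JAZ12, at -0.41 ± 0.11 (adjusted p = 0.0456), the latter lost when any of 14 of the 16 arrays was left out, with either replicate block and when these groups were fitted alone (adjusted p up to 0.141 over these last 3). JAZ9 rose by 0.96 ± 0.19 in WT and JAZ6 by 0.82 ± 0.13, and neither difference from cyp20-3 was called (0.90 and 0.55).

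The receptor and the factors gave 1 rise and 1 fall in 10, beside 8.83% and 8.99% of all genes. COI1 (AT2G39940), the receptor, was at 7.05, 7.09, 7.04 and 7.11 in NL and 6.79, 6.75, 6.69 and 6.72 in HL, and fell by 0.33 ± 0.10 (adjusted p = 0.015). MYC2 (AT1G32640), the factor that JAZ proteins hold back, rose by 0.52 ± 0.14 (adjusted p = 0.0093), a call lost without NL replicate 2 or HL replicate 1. MYC3 (AT5G46760), MYC4 (AT4G17880) and ERF1B (AT3G23240) were not called, at -0.18 ± 0.09, 0.29 ± 0.14 and -0.18 ± 0.18. Among the enzymes that break jasmonate down, ST2A was at 4.46, 4.54, 4.66 and 5.01 in NL and 8.09, 7.63, 6.90 and 7.97 in HL, AT5G05600, a list member without a symbol, was at 2.17, 2.25, 2.27 and 2.98 in NL and 3.87, 4.02, 4.11 and 4.33 in HL, and CYP94C1 (AT2G27690) rose by 1.09 ± 0.18. Of the outputs, VSP2 (AT5G24770), a vegetative storage protein, was at 1.77, 2.91, 1.97 and 2.29 in NL and 3.40, 3.32, 3.42 and 3.76 in HL and rose by 1.24 ± 0.28 (adjusted p = 0.00162). The defensins, which answer jasmonate together with ethylene, were spread among the NL arrays: PDF1.2 (AT5G44420) was at 4.05, 6.17, 4.60 and 7.43 in NL and 4.53, 4.39, 4.88 and 4.15 in HL, and its difference of -1.07 ± 0.55 was not called. PDF1.2b (AT2G26020) likewise differed by -1.53 ± 0.64, not called. Without NL replicate 1 both were called, at -1.58 (adjusted p = 0.0483) and -2.11 (adjusted p = 0.0233). Their highest NL values lay on replicates 2 and 4, which stood at opposite ends of the principal component carrying 12.3% of the variance (-34.29 and 27.60). A link between the 2 was not tested.

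**Figure D3:**
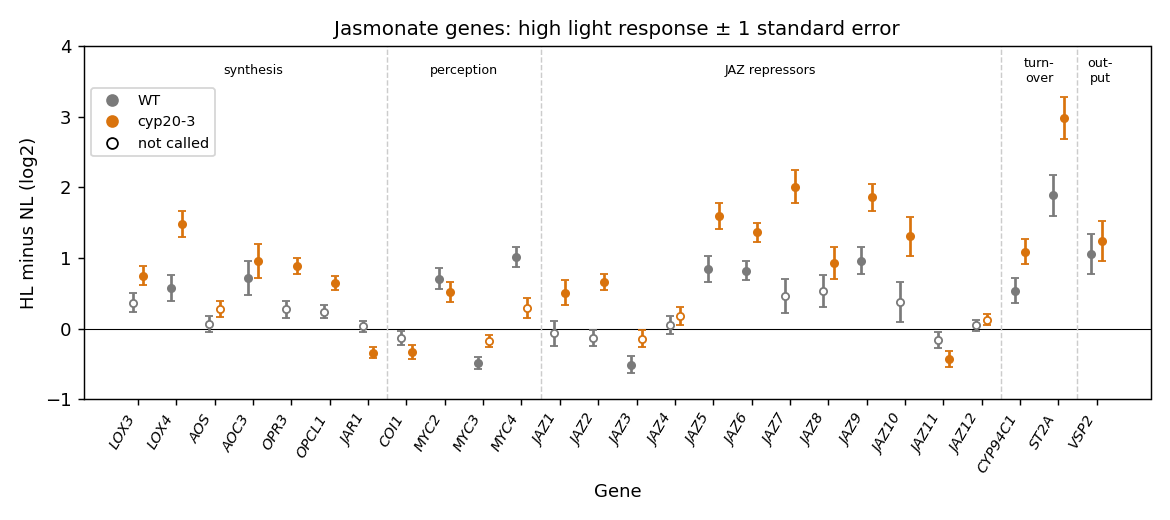
High light response (HL minus NL, log2) of 26 jasmonate genes in cyp20-3 (orange) and WT (grey), ordered by role from synthesis through perception and JAZ repressors to turnover and output, with bars of 1 standard error. Filled points were called at an adjusted p under 0.05, and 8 of the 12 JAZ genes are filled above 0 in cyp20-3.

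Genes that respond to OPDA and other electrophiles apart from COI1 gave 2 rises and 1 fall in 14, beside 8.83% and 8.99% of all genes. Of the rises 1 was left without NL replicates 2, 3 or 4 or HL replicates 1 or 3, and of the falls 0 without NL replicates 1 or 2 or HL replicates 1 or 4. OPR2 (AT1G76690), a cytosolic reductase related to OPR3, was at 4.42, 4.11, 4.08 and 4.1 in NL and 4.78, 4.76, 4.99 and 4.72 in HL, and rose by 0.64 ± 0.14 (adjusted p = 0.00106). GRX480 (AT1G28480), a glutaredoxin also called ROXY19, differed by 0.42 ± 0.18, CYP81D11 (AT3G28740), a cytochrome P450, by 0.41 ± 0.19 and GSTU25 (AT1G17180), a glutathione transferase, by 0.11 ± 0.19. None of the latter 3 was called with all arrays, and GRX480 was called without NL replicate 1 (adjusted p = 0.0352).

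In sulfate assimilation 5 of 19 genes rose and 1 fell, and 3 rose when NL replicate 1, NL replicate 3 or HL replicate 1 was left out, and 0 fell without HL replicates 2 or 3. The response of cyp20-3 differed from that of WT or oastlB for 0 of the 19. APR2 (AT1G62180), the main adenylylsulfate reductase, was at 6.78, 6.68, 6.53 and 6.14 in NL and 7.99, 8.26, 8.03 and 7.81 in HL, with no overlap, and its rise was 0.98 ± 0.16 (adjusted p = 0.000186) larger than in 2cysprx. Its relatives moved less, with APR1 (AT4G04610) at -0.18 ± 0.12, not called, and APR3 (AT4G21990) at 0.35 ± 0.12, a call lost without NL replicates 1, 3 or 4 or HL replicates 1, 2 or 3, each left out alone, and when the 8 arrays were fitted alone (adjusted p = 0.117). The plastid partners of CYP20-3 in cysteine synthesis were not called. SERAT2;1 (AT1G55920), the plastid serine acetyltransferase, was at 6.03, 6.34, 6.34 and 6.28 in NL and 6.21, 6.03, 6.66 and 5.96 in HL, a difference of -0.03 ± 0.14. OASB (AT2G43750), which makes cysteine in the plastid from O-acetylserine, stood at 9.20, 9.14, 9.30 and 9.28 in NL and 8.96, 8.98, 8.99 and 8.93 in HL, a difference of -0.27 ± 0.14. The NL and HL arrays overlapped for SERAT2;1, and for OASB the HL arrays lay below the NL arrays, with adjusted p = 0.196. The standard errors of both come from the spread over all 40 arrays, those of serat2;1 and oastlB among them, and not from the cyp20-3 arrays alone. Leaving out 1 cyp20-3 array gave differences of -0.30 to -0.24 for OASB. The sulfite reductase SIR (AT5G04590) differed by -0.01 ± 0.08, and GSH1 (AT4G23100), the first enzyme of glutathione synthesis, fell by 0.22 ± 0.07 (adjusted p = 0.0155), a call lost without HL replicate 2 or 3 and when the 8 arrays were fitted alone (adjusted p = 0.149).

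Of 13 sulfur starvation markers, 5 rose, and 0 differed in response from WT or oastlB. GGCT2;1 (AT5G26220), which breaks down glutathione, was at 5.79, 6.07, 5.93 and 6.15 in NL and 7.85, 7.84, 8.04 and 7.65 in HL, and rose by 1.86 ± 0.17 (adjusted p = 2.38e-10), the largest rise of the list. SDI1 (AT5G48850), a repressor of glucosinolate synthesis, was at 3.57, 3.69, 3.93 and 3.58 in NL and 4.68, 5.26, 4.74 and 4.48 in HL, and rose by 1.1 ± 0.26 (adjusted p = 0.00222). AT1G04770, listed without a symbol, rose by 0.70 ± 0.14. LSU2 (AT5G24660), of the family named for its response to low sulfur, was at 4.66, 4.26, 4.99 and 5.31 in NL and 6.42, 6.80, 6.45 and 6.25 in HL, and exceeded 2cysprx by 1.43 ± 0.33 (adjusted p = 0.0067). LSU3 (AT3G49570), of the same family, rose by 0.63 ± 0.19 (adjusted p = 0.0193), with overlapping groups, a call lost without NL replicates 1 or 2 or HL replicate 2, with a replicate block within genotype and when the 8 arrays were fitted alone (adjusted p up to 0.111). None of the 5 sulfate transporters of the list was called: SULTR1;1 (AT4G08620), SULTR1;2 (AT1G78000), SULTR2;1 (AT5G10180), SULTR4;1 (AT5G13550) and SULTR4;2 (AT3G12520) differed by -0.42 ± 0.19, -0.06 ± 0.20, 0.11 ± 0.15, 0.16 ± 0.16 and 0.31 ± 0.15. In methionine synthesis 4 of 11 rose, among them CGS1 (AT3G01120), cystathionine gamma-synthase (0.33 ± 0.08), and SAM2 (AT4G01850), an S-adenosylmethionine synthetase (0.40 ± 0.08).

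Of 14 cyclophilins and plastid immunophilins, 3 rose and 2 fell, beside 8.83% and 8.99% of all genes. In WT 5 of the 14 rose and 2 fell, beside 10.3% and 9.58% of all genes. CYP38 (AT3G01480), a thylakoid lumen cyclophilin needed to assemble photosystem II, was at 10.59, 10.57, 10.57 and 10.45 in NL and 9.92, 9.83, 9.90 and 9.84 in HL, and fell by 0.67 ± 0.07 (adjusted p = 1.5e-09). ROC1 (AT4G38740), a cytosolic cyclophilin, was at 8.43, 8.58, 8.33 and 8.64 in NL and 8.97, 9.05, 8.91 and 9.27 in HL, and rose by 0.56 ± 0.09 (adjusted p = 1.15e-05). ROC7 (AT5G58710), of the secretory pathway, rose by 0.45 ± 0.08. ROC1 and ROC7 also rose in WT, by 0.57 ± 0.09 and 0.50 ± 0.08. CYP20-2 (AT5G13120), of the thylakoid, rose by 0.21 ± 0.06, a call lost without NL replicate 4 or HL replicate 2, with a replicate block within genotype (adjusted p = 0.0594) and when the 8 arrays were fitted alone (adjusted p = 0.142).

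Among peroxiredoxins and related thiol peroxidases, which reduce peroxides, 3 of 16 genes rose and 0 fell, with 1 fall without NL replicate 4. Over all genes 8.83% rose and 8.99% fell. The 2-Cys peroxiredoxins 2CPA (AT3G11630) and 2CPB (AT5G06290) differed by 0.05 ± 0.40 and 0.03 ± 0.15, and sulfiredoxin, SRX (AT1G31170), which repairs them, by 0.13 ± 0.11, none called. These standard errors come from the spread over all 40 arrays, those of 2cysprx among them. Leaving out 1 cyp20-3 array gave differences of -0.01 to 0.094 for 2CPA. AT3G52960, a list member without a symbol, was at 7.68, 7.54, 7.40 and 7.37 in NL and 7.99, 7.89, 7.96 and 7.89 in HL, and rose by 0.44 ± 0.11 (adjusted p = 0.00344). GPX2 (AT2G31570), a glutathione peroxidase-like enzyme, rose by 0.38 ± 0.10.

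Of 23 enzymes against ascorbate oxidation, superoxide and peroxide, 8 rose and 4 fell. CAT2 (AT4G35090), the peroxisomal catalase of photorespiration, was at 8.15, 8.06, 7.96 and 7.86 in NL and 9.05, 9.20, 9.08 and 9.27 in HL, and rose by 1.14 ± 0.13 (adjusted p = 2.01e-08). FSD1 (AT4G25100), an iron superoxide dismutase, was at 7.28, 7.37, 6.76 and 6.81 in NL and 8.15, 7.99, 8.23 and 8.14 in HL, and rose by 1.07 ± 0.18 (adjusted p = 2.32e-05). APX1 (AT1G07890), the cytosolic ascorbate peroxidase, was at 7.77, 7.61, 7.68 and 7.79 in NL and 8.38, 8.39, 8.38 and 8.34 in HL, and rose by 0.66 ± 0.08 (adjusted p = 8.21e-08). The HL arrays lay above the NL arrays for all 3. The dehydroascorbate reductases rose together, DHAR1 (AT1G19570) by 0.96 ± 0.14, DHAR2 (AT1G75270) by 1.02 ± 0.17 and DHAR3 (AT5G16710) by 0.43 ± 0.08. Among the falls, GR2 (AT3G54660), the glutathione reductase of plastids and mitochondria, fell by 0.47 ± 0.08, and APX4 (AT4G09010), a thylakoid protein of the ascorbate peroxidase family, fell by 0.50 ± 0.06. The inducible cytosolic peroxidase APX2 (AT3G09640), a known marker of strong excess light, differed by -0.05 ± 0.15 and was not called.

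Of 14 genes for thioredoxins of the plastid and their reductases, 3 were called as rises and 2 as falls. CDSP32 (AT1G76080), a drought-induced stromal thioredoxin, was at 8.02, 7.99, 8.24 and 8.10 in NL and 9.02, 9.03, 9.06 and 8.97 in HL, and rose by 0.93 ± 0.09 (adjusted p = 5.77e-10). TRXF2 (AT5G16400), one of the pair of f-type thioredoxins that switch on carbon fixation, was at 7.78, 7.82, 7.99 and 7.81 in NL and 7.12, 7.30, 7.23 and 7.08 in HL, and fell by 0.67 ± 0.10 (adjusted p = 7.18e-06). Its sister TRXF1 (AT3G02730) rose by 0.28 ± 0.09 (adjusted p = 0.029), a call lost without NL replicates 1, 2 or 4 or HL replicates 1 or 3, each left out alone, and when the 8 arrays were fitted alone (adjusted p = 0.116). NTRC (AT2G41680), the NADPH-dependent reductase of 2-Cys peroxiredoxin, fell by 0.37 ± 0.07.

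Markers of reactive oxygen and of signals from organelles gave 7 rises and 1 fall in 16. ZAT10 (AT1G27730), a zinc finger repressor induced by excess light, was at 5.76, 6.09, 5.79 and 6.56 in NL and 6.77, 8.19, 7.96 and 7.72 in HL, and rose by 1.61 ± 0.42 (adjusted p = 0.0051). AT2G21640, which has no symbol in the reference table, was at 5.45, 5.58, 5.02 and 5.94 in NL and 6.24, 6.77, 6.93 and 6.75 in HL, and rose by 1.18 ± 0.18 (adjusted p = 1.08e-05). AOX1A (AT3G22370), the alternative oxidase, rose by 0.76 ± 0.13. BAP1 (AT3G61190) and OXI1 (AT3G25250), markers of singlet oxygen, differed by 0.28 ± 0.29 and 0.12 ± 0.15, and ZAT12 (AT5G59820), a marker of hydrogen peroxide, by 0.45 ± 0.23, none called. GPT2, in this list as a retrograde marker, exceeded the response of 2cysprx by 3.82 ± 0.37 (adjusted p = 4.27e-08). A difference from the response of WT or of oastlB was called for 0 of the 16, GPT2 included.

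Of 25 heat shock genes, 5 rose in cyp20-3, with a median of 0.45, against 13 that rose and 1 that fell in WT, with a median of 0.82. Over all genes 8.83% rose in cyp20-3 and 10.3% in WT. The list gave 6 rises in 2cysprx (median 0.39), 12 in oastlB (0.80) and 3 in serat2;1 (0.15). Of all 27826 genes, 1246, 2198 and 1541 rose in these lines in that order. Tested directly, the response of cyp20-3 was lower than that of WT for 2 of the 25 and higher for 0. HSP90.1 (AT5G52640), a cytosolic chaperone, was at 4.12, 3.93, 3.67 and 3.93 in NL and 5.73, 6.37, 5.32 and 6.60 in HL, and rose by 2.09 ± 0.39 (adjusted p = 0.000168). HSP18.2 (AT5G59720), a small heat shock protein, was at 3.14, 2.27, 3.21 and 3.29 in NL and 4.70, 4.28, 4.21 and 6.31 in HL, and rose by 1.90 ± 0.35 (adjusted p = 0.000106). HSFA3 (AT5G03720), a heat shock factor, rose by 0.91 ± 0.18. The HL arrays differed among themselves, with HSP18.2 highest on replicate 4 and HSP90.1 lowest on replicate 3. HSFA2 (AT2G26150), the factor that prolongs the heat response, was at 2.94, 2.69, 2.72 and 2.26 in NL and 3.26, 4.89, 3.09 and 3.82 in HL in cyp20-3. Its difference of 1.11 ± 0.43 (adjusted p = 0.0719) was not called with all arrays, but was without HL replicate 3 (adjusted p = 0.0467) and with an intensity trend in the prior variance (adjusted p = 0.0497), and it averaged 2.79 ± 0.31 in NL and 6.47 ± 1.66 in HL in WT. The response was -2.58 ± 0.61 (adjusted p = 0.0309) relative to WT, a call lost without NL replicates 1, 2 or 3 or HL replicates 1, 3 or 4 of cyp20-3 or without NL replicate 3 or HL replicates 3 or 4 of WT, each left out alone (adjusted p up to 0.0825). It was also lost with a replicate block within genotype (adjusted p = 0.0553), with array weights (adjusted p = 0.0516) and when these groups were fitted alone (adjusted p = 0.238). MBF1C (AT3G24500), a coactivator of thermotolerance, was at 5.03, 5.21, 5.49 and 4.89 in NL and 5.13, 5.80, 5.85 and 5.62 in HL, with a response of -2.06 ± 0.39 (adjusted p = 0.00305) relative to WT, which was not called when these groups were fitted alone. Against oastlB, HSP90.1 responded by -2.33 ± 0.56 (adjusted p = 0.0164), which was not called when these groups were fitted alone. The WT HL arrays were themselves scattered for these genes (SD 1.66 for HSFA2).

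Of 11 genes of protein folding in the endoplasmic reticulum 5 rose. SDF2 (AT2G25110), a chaperone cofactor, was at 9.21, 9.04, 9.17 and 9.11 in NL and 9.75, 9.65, 9.62 and 9.68 in HL, and rose by 0.55 ± 0.09 (adjusted p = 2.46e-05). CRT1A (AT1G56340), a calreticulin, rose by 0.59 ± 0.14 and ERDJ3B (AT3G62600), a co-chaperone, rose by 0.49 ± 0.09. The stress factor BZIP60 (AT1G42990) differed by 0.07 ± 0.15, not called.

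Chlorophyll synthesis fell at several steps. Of 18 genes 11 fell and 0 rose, with a median of -0.31, against -0.12 in WT, where 8 fell and 2 rose. In 2cysprx 9 fell and 0 rose (median -0.23), in oastlB 14 and 0 (-0.50) and in serat2;1 14 and 1 (-0.35). Of all 27826 genes, 1134, 2297 and 1643 fell in these lines in that order. Tested directly, the response of cyp20-3 differed from that of WT for 0 of the 18. In order of the steps, GSA2 (AT3G48730), which makes aminolevulinate, fell by 0.53 ± 0.08. HEME2 (AT2G40490), uroporphyrinogen decarboxylase, was at 10.07, 10.08, 10.12 and 10.06 in NL and 9.51, 9.35, 9.55 and 9.45 in HL, and fell by 0.62 ± 0.07 (adjusted p = 1.78e-08). CHLD (AT1G08520), a subunit of magnesium chelatase, was at 10.48, 10.44, 10.49 and 10.48 in NL and 9.83, 9.78, 9.76 and 9.75 in HL, and fell by 0.70 ± 0.07 (adjusted p = 7.16e-09). Both were lower on every HL array than on any NL array. CHLI2 (AT5G45930), of the same enzyme, fell by 0.66 ± 0.14. CHLM (AT4G25080), the next enzyme, fell by 0.31 ± 0.07. PORA (AT5G54190) was at 4.04, 3.40, 3.98 and 3.5 in NL and 1.69, 1.98, 2.22 and 1.97 in HL, and its response was -1.47 ± 0.34 (adjusted p = 0.00698) relative to 2cysprx. CAO (AT1G44446), which makes chlorophyll b, fell by 0.33 ± 0.07. HEMA1 (AT1G58290), the first committed enzyme, differed by 0.15 ± 0.10 and CHLH (AT5G13630), the large chelatase subunit, by -0.20 ± 0.08, and neither was called with all arrays. CHLH was called under 3 alternatives (adjusted p between 0.0252 and 0.0311). Chlorophyll breakdown showed 1 rise in 9, that of RCCR (AT4G37000), red chlorophyll catabolite reductase (0.35 ± 0.07).

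Of 19 light-harvesting genes 8 fell and 1 rose. LHCB4.2 (AT3G08940) was at 9.37, 9.37, 9.48 and 9.31 in NL and 8.98, 8.75, 8.83 and 8.90 in HL, and fell by 0.52 ± 0.09 (adjusted p = 5.93e-05). LHCB6 (AT1G15820), another minor antenna of photosystem II, was at 11.51, 11.48, 11.40 and 11.31 in NL and 10.96, 11.05, 11.07 and 11.03 in HL, and fell by 0.40 ± 0.07 (adjusted p = 0.000172). LHCA3 (AT1G61520), of photosystem I, fell by 0.49 ± 0.08. LHCB4.3 (AT2G40100), a minor antenna known to accumulate in strong light, went the other way, at 4.78, 4.91, 4.77 and 4.61 in NL and 5.68, 6.08, 6.10 and 6.14 in HL, and rose by 1.23 ± 0.18 (adjusted p = 2.67e-06). The HL and NL arrays of all 4 were apart. LHCB1 genes are near-identical, so their single values are uncertain, and LHCB1.4 (AT2G34430, -0.99 ± 0.11) exceeded LHCB1.3 (AT1G29930, -0.29 ± 0.08) in size. Its response was -0.79 ± 0.16 (adjusted p = 0.00195) relative to 2cysprx. Relative to WT, 0 of the 19 light-harvesting genes differed in response. Reaction centre and electron transport subunits gave 3 rises, of which 1 was left without HL replicate 3, and 2 falls, of which 1 was left without NL replicates 1, 2 or 4 or HL replicates 2 or 4, in 27, among them FD2 (AT1G60950), the leaf ferredoxin (0.32 ± 0.08), and PSAD1 (AT4G02770), of photosystem I (-0.40 ± 0.11). Over all genes 8.83% rose and 8.99% fell.

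Of 19 Calvin-Benson genes 10 rose and 0 fell, with a median of 0.24. RBCS2B (AT5G38420), a small subunit of Rubisco, was at 10.34, 9.98, 10.14 and 9.89 in NL and 11.07, 11.36, 11.30 and 11.21 in HL, and rose by 1.15 ± 0.09 (adjusted p = 2.97e-11). FBA1 (AT2G21330), a plastid aldolase, was at 10.00, 10.22, 10.05 and 9.99 in NL and 10.58, 10.79, 10.72 and 10.76 in HL, and rose by 0.65 ± 0.09 (adjusted p = 6.18e-07). GAPB (AT1G42970), a subunit of glyceraldehyde 3-phosphate dehydrogenase, rose by 0.48 ± 0.07. SBPASE (AT3G55800), sedoheptulose bisphosphatase, rose by 0.29 ± 0.06. The small subunit genes are near-identical copies, and RBCS1A (AT1G67090) differed by 0.03 ± 0.05, not called, while RBCS1B (AT5G38430) rose by 0.91 ± 0.14. Of 11 photorespiration genes 7 rose, with a median of 0.40. AGT (AT2G13360), alanine:glyoxylate aminotransferase, was at 11.28, 11.20, 11.26 and 11.27 in NL and 11.77, 11.93, 11.94 and 11.84 in HL, and rose by 0.62 ± 0.06 (adjusted p = 5.31e-09). GLDP1 (AT4G33010), a subunit of glycine decarboxylase, rose by 0.55 ± 0.08 and HPR (AT1G68010), hydroxypyruvate reductase, rose by 0.40 ± 0.07.

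**Figure D4:**
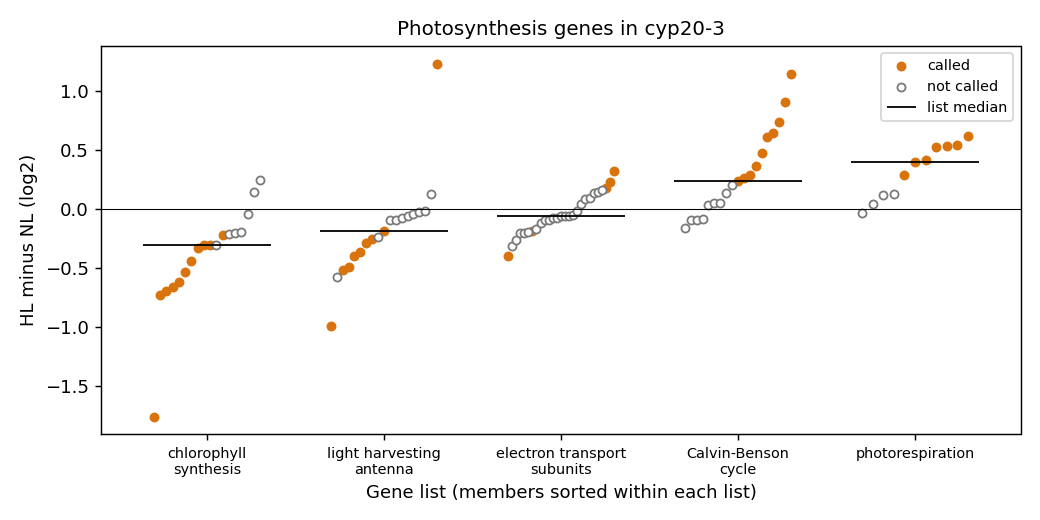
High light response (HL minus NL, log2) in cyp20-3 of each measured member of 5 gene lists, with 1 point per gene, filled where called at an adjusted p under 0.05, and a bar at the list median. The chlorophyll synthesis and antenna genes lie mostly below 0, the Calvin-Benson and photorespiration genes mostly above 0, and electron transport subunits about 0.

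Photoprotection genes gave 7 rises and 2 falls in 20, of which 1 fall was left without NL replicates 1, 3 or 4 or HL replicates 2 or 4. BCH1 (AT4G25700), a carotene hydroxylase of xanthophyll synthesis, was at 4.45, 4.13, 3.97 and 3.65 in NL and 5.04, 5.28, 5.43 and 5.02 in HL, and rose by 1.14 ± 0.18 (adjusted p = 8.27e-06), and its relative BCH2 (AT5G52570) rose by 0.96 ± 0.21. PGR5 (AT2G05620), of cyclic electron flow, was at 7.38, 7.31, 7.50 and 7.46 in NL and 8.19, 8.26, 8.52 and 8.28 in HL, and rose by 0.90 ± 0.11 (adjusted p = 2e-07). VTC2 (AT4G26850), of ascorbate synthesis, rose by 0.60 ± 0.09. NPQ1 (AT1G08550), violaxanthin de-epoxidase, was at 9.25, 9.31, 9.33 and 9.17 in NL and 8.62, 8.81, 8.75 and 8.65 in HL, and fell by 0.55 ± 0.08 (adjusted p = 2.59e-06). The early light-induced proteins, which mark recent exposure to strong light, were not called, with ELIP1 (AT3G22840) at 4.1, 4.23, 4.45 and 4.02 in NL and 4.27, 4.51, 4.90 and 4.57 in HL and ELIP2 (AT4G14690) differing by -0.25 ± 0.19. In plastid gene expression 3 of 15 rose and 6 fell. SIG5 (AT5G24120), the light- and stress-induced sigma factor, rose by 0.56 ± 0.13, while SIG2 (AT1G08540) fell by 0.51 ± 0.08 and PTAC2 (AT1G74850) of the plastid RNA polymerase fell by 0.54 ± 0.10. GLK1 (AT2G20570) and GLK2 (AT5G44190), factors that promote photosynthesis genes, also rose, at 0.39 ± 0.07 and 0.47 ± 0.08.

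Starch and sugar genes gave 9 rises and 4 falls in 21, and the response was higher than that of WT for 1 and lower for 0. GBSS1 (AT1G32900), granule-bound starch synthase, was at 5.06, 5.19, 4.94 and 5.29 in NL and 7.57, 7.70, 7.53 and 7.45 in HL, and rose by 2.44 ± 0.19 (adjusted p = 1.46e-11), exceeding 2cysprx by 1.57 ± 0.27 (adjusted p = 0.000365). APL3 (AT4G39210), a sugar-induced subunit of ADP-glucose pyrophosphorylase, was at 6.87, 7.07, 7.02 and 6.81 in NL and 7.77, 7.77, 7.86 and 7.81 in HL, and rose by 0.86 ± 0.12 (adjusted p = 7.96e-07). Its leaf counterpart APL1 (AT5G19220) fell by 0.41 ± 0.07, so the subunits moved in opposite directions. CINV1 (AT1G35580), a cytosolic invertase, was at 8.79, 8.55, 8.71 and 8.75 in NL and 7.46, 7.26, 7.21 and 7.51 in HL, and fell by 1.34 ± 0.10 (adjusted p = 2.41e-12). None of these 4 overlapped between the groups. The hexose transporter STP1 (AT1G11260) was at 7.81, 8.05, 7.93 and 7.54 in NL and 7.93, 7.90, 7.79 and 8.11 in HL, with no call in cyp20-3 (0.10 ± 0.11), while it changed by -0.96 ± 0.11 in WT, a difference in response of 1.06 ± 0.16 (adjusted p = 0.000287).

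Of 16 genes of darkness and sugar starvation 9 fell and 2 rose, with a median of -0.65. TPS10 (AT1G60140), of the trehalose phosphate synthase family, was at 7.04, 6.80, 6.78 and 6.82 in NL and 6.11, 5.93, 5.48 and 6.21 in HL, and fell by 0.93 ± 0.17 (adjusted p = 0.000151). DIN6 (AT3G47340), asparagine synthetase 1, was at 3.81, 3.49, 3.62 and 3.96 in NL and 3.21, 3.00, 2.85 and 3.07 in HL, and fell by 0.69 ± 0.19 (adjusted p = 0.00871). BT2 (AT3G48360), a scaffold protein repressed by sugar, was at 7.01, 6.95, 7.37 and 7.15 in NL and 5.45, 5.74, 5.48 and 6.86 in HL, and fell by 1.24 ± 0.29 (adjusted p = 0.00204). BT2 on HL replicate 4 lay close to the NL arrays, and the other 3 HL arrays were well below. DIN10 (AT5G20250), a putative raffinose synthase, was an exception, at 6.50, 6.56, 6.63 and 6.38 in NL and 7.47, 7.41, 7.30 and 7.90 in HL, and rose by 1.00 ± 0.20 (adjusted p = 0.000353). In WT it averaged 6.43 ± 0.17 in NL and 5.51 ± 0.07 in HL, so the response of cyp20-3 was opposite in sign and differed by 1.92 ± 0.28 (adjusted p = 0.000274), and it differed from that of oastlB by 2.47 ± 0.28 (adjusted p = 1.18e-06). TPS8 (AT1G70290) was at 6.64, 6.64, 6.47 and 6.47 in NL and 6.82, 6.98, 6.59 and 7.11 in HL in cyp20-3 (0.32 ± 0.18, not called) and changed by -1.36 ± 0.18 in WT, a difference of 1.68 ± 0.26 (adjusted p = 0.000287).

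Flavonoid genes gave 6 rises and 1 fall in 23, with a median of 0.47, and 3 rises without NL replicate 1 or without HL replicate 4. Against WT the response differed for 0 of the 23. PAP1 (AT1G56650), the MYB activator of anthocyanin synthesis, was at 5.08, 4.61, 4.92 and 5.29 in NL and 6.27, 6.35, 6.21 and 6.19 in HL, and rose by 1.28 ± 0.21 (adjusted p = 1.71e-05). CHS (AT5G13930), chalcone synthase, was at 7.90, 7.90, 7.85 and 7.73 in NL and 8.55, 8.92, 8.77 and 8.71 in HL, and rose by 0.89 ± 0.17 (adjusted p = 0.000139), which exceeded 2cysprx by 1.49 ± 0.23 (adjusted p = 0.000115). MYBL2 (AT1G71030), a repressor, was at 6.61, 6.61, 6.48 and 6.35 in NL and 6.05, 5.79, 5.80 and 5.67 in HL, and fell by 0.69 ± 0.13 (adjusted p = 0.000234). PAP1 and CHS were higher and MYBL2 lower on each HL array. The late enzymes DFR (AT5G42800) and LDOX (AT4G22880) differed by 0.60 ± 0.37 and 0.81 ± 0.40, not called. When the 8 cyp20-3 arrays were fitted alone both were (adjusted p = 0.0125 and 0.00549), and LDOX also was with a replicate block within genotype (adjusted p = 0.0304).

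Of 21 salicylate and immune genes 7 fell and 0 rose, with a median of -0.35. SARD1 (AT1G73805), an activator of salicylate synthesis, was at 6.85, 6.94, 7.04 and 7.13 in NL and 5.70, 5.88, 5.87 and 5.82 in HL, and fell by 1.18 ± 0.17 (adjusted p = 2.37e-06). EDS1 (AT3G48090), a lipase-like immune regulator, was at 6.36, 6.71, 6.58 and 6.51 in NL and 5.79, 5.77, 5.63 and 5.86 in HL, and fell by 0.78 ± 0.13 (adjusted p = 5.2e-05). ICS1 (AT1G74710), the synthesis enzyme, fell by 0.57 ± 0.16 (adjusted p = 0.0106), a call lost without NL replicate 3 (adjusted p = 0.0558), and NPR1 (AT1G64280), the receptor, fell by 0.37 ± 0.09. The pathogenesis marker PR1 (AT2G14610) was at 5.41, 7.35, 6.48 and 4.77 in NL and 4.67, 5.39, 6.44 and 3.92 in HL, and its difference of -0.90 ± 0.89 was within that spread. WRKY70 (AT3G56400) differed by 0.05 ± 0.17, not called.

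Among the abscisic acid and dehydration genes 6 of 20 rose and 5 fell. RD20 (AT2G33380), a caleosin, was at 5.56, 5.62, 5.63 and 6.23 in NL and 7.74, 7.58, 7.21 and 7.74 in HL, and rose by 1.80 ± 0.23 (adjusted p = 3.1e-07). CYP707A3 (AT5G45340), which breaks abscisic acid down, was at 2.86, 2.77, 2.69 and 3.25 in NL and 3.63, 4.80, 4.36 and 4.51 in HL, and rose by 1.43 ± 0.27 (adjusted p = 0.000149). RD29A (AT5G52310), of the drought and cold response, was at 10.00, 10.16, 9.91 and 10.03 in NL and 9.24, 9.26, 9.08 and 9.60 in HL, and fell by 0.73 ± 0.14 (adjusted p = 0.00016). The list moved both ways, with LTP3, LTP4, RD20 and RD22 (AT5G25610, 0.54 ± 0.08) high in HL and RD29A, ABI1 (AT4G26080), a phosphatase that shuts the pathway off (-0.80 ± 0.10), and COR47 (AT1G20440), a dehydrin (-0.55 ± 0.14), low. The response of RD29A was -1.32 ± 0.19 (adjusted p = 4.25e-05) relative to 2cysprx and -1.18 ± 0.19 (adjusted p = 0.000291) relative to oastlB, and in WT it also fell (-0.88 ± 0.14). GOLS3 (AT1G09350), galactinol synthase, from the cold list, was at 6.92, 6.98, 6.51 and 6.18 in NL and 5.40, 5.48, 4.90 and 5.60 in HL, and fell by 1.31 ± 0.19 (adjusted p = 4.84e-06).

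Of 16 shade and auxin genes 7 rose and 0 fell, with a median of 0.51. ATHB2 (AT4G16780), a homeodomain factor of shade avoidance, was at 5.82, 5.79, 5.74 and 5.77 in NL and 8.00, 7.78, 7.52 and 8.09 in HL, and rose by 2.07 ± 0.12 (adjusted p = 1.95e-14). HFR1 was at 3.01, 3.48, 3.51 and 3.03 in NL and 6.73, 6.40, 5.29 and 6.60 in HL. IAA29 (AT4G32280), an auxin response repressor, was at 6.23, 6.40, 6.31 and 6.04 in NL and 7.62, 7.36, 7.01 and 7.54 in HL, and rose by 1.14 ± 0.19 (adjusted p = 2.34e-05). HFR1 was lower on HL replicate 3 than on the other HL arrays, and all HL values lay above all NL values for the 3 genes. ATHB2 and HFR1 also rose in WT, by 1.63 ± 0.12 and 1.95 ± 0.26. The response of IAA29 minus that of 2cysprx was -1.47 ± 0.26 (adjusted p = 0.000558). Relative to WT, 0 of the 16 genes differed in response.

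Of 12 cytokinin genes, 5 fell and 2 rose, with a median of -0.45. The type-A response regulators, which are induced by cytokinin and feed back on it, were ARR7 (AT1G19050) at 6.57, 6.75, 6.79 and 6.74 in NL and 5.89, 5.80, 6.19 and 5.73 in HL (-0.81 ± 0.16), ARR6 (AT5G62920, -0.93 ± 0.21), ARR5 (AT3G48100, -0.87 ± 0.22) and ARR4 (AT1G10470, -0.52 ± 0.10). CKX5 (AT1G75450), a cytokinin oxidase, was at 4.44, 3.5, 3.63 and 4.2 in NL and 5.90, 5.72, 4.68 and 5.39 in HL, and rose by 1.48 ± 0.25 (adjusted p = 2.94e-05). Ethylene gave 3 rises and 4 falls in 15. ACS6 (AT4G11280), an enzyme of ethylene synthesis, was at 5.76, 5.93, 6.24 and 6.29 in NL and 6.89, 7.79, 7.27 and 6.96 in HL, and rose by 1.17 ± 0.23 (adjusted p = 0.000338), while EBF2 (AT5G25350), which has the factor EIN3 degraded, fell by 0.45 ± 0.10.

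The labels used here give no time of day of harvest and no time course, so the values of clock genes give no phase. Whether the NL and HL plants were harvested at the same time of day was not tested. Of 11 evening genes 5 fell and 1 rose. PRR5 (AT5G24470), a pseudo-response regulator, was at 10.29, 10.21, 10.18 and 10.21 in NL and 9.65, 9.77, 9.73 and 9.85 in HL, and fell by 0.47 ± 0.08 (adjusted p = 2.09e-05). ELF3 (AT2G25930), of the evening complex, fell by 0.65 ± 0.11, and GI (AT1G22770), GIGANTEA, fell by 0.46 ± 0.08. CHE (AT5G08330), a repressor of CCA1, was the 1 rise, at 5.62, 5.88, 5.75 and 5.38 in NL and 6.08, 6.31, 6.35 and 6.30 in HL. Of 10 morning and day genes 2 rose: CCA1 (AT2G46830, 0.64 ± 0.15) and PRR9 (AT2G46790, 0.71 ± 0.20). PRR9 was at 4.52, 4.15, 4.06 and 3.93 in NL and 4.83, 5.05, 5.03 and 4.61 in HL in cyp20-3, and in WT it averaged 4.14 ± 0.34 in NL and 6.64 ± 0.49 in HL, and the response of cyp20-3 minus that of WT was -1.79 ± 0.29 (adjusted p = 0.000465). RVE7 (AT1G18330), a MYB-like clock output factor, was at 5.21, 5.12, 5.44 and 5.27 in NL and 5.01, 5.22, 4.83 and 4.70 in HL and responded by -1.5 ± 0.28 (adjusted p = 0.00258) relative to WT, which was not called when these groups were fitted alone.

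Of 14 nitrogen genes 6 rose and 3 fell, and the response was higher than that of WT for 1 and lower for 1. NRT1.1 (AT1G12110), a nitrate transporter and sensor, was at 7.50, 7.48, 7.51 and 7.59 in NL and 8.37, 8.49, 8.38 and 8.31 in HL, and rose by 0.86 ± 0.09 (adjusted p = 2.05e-09). NIA2 (AT1G37130), the main nitrate reductase, was at 7.81, 7.87, 7.56 and 7.78 in NL and 9.32, 9.38, 9.45 and 9.56 in HL, and rose by 1.67 ± 0.10 (adjusted p = 7.78e-14). NIR1 (AT2G15620), nitrite reductase, was at 8.75, 8.54, 8.73 and 8.58 in NL and 9.44, 9.56, 9.46 and 9.57 in HL, and rose by 0.86 ± 0.09 (adjusted p = 3.27e-09). All 3 were higher on each HL array. The rise of NRT1.1 exceeded that of WT by 0.66 ± 0.12 (adjusted p = 0.0019), and that of NIA2 exceeded 2cysprx by 1.51 ± 0.15 (adjusted p = 4.27e-08) and oastlB by 0.79 ± 0.15 (adjusted p = 0.00117). GLN1;1 (AT5G37600), cytosolic glutamine synthetase, fell by 0.69 ± 0.14 and GLT1 (AT5G53460), NADH-dependent glutamate synthase, fell by 0.64 ± 0.10.

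In phosphate starvation 1 of 12 genes rose, with 2 rises without HL replicate 2, and 1 fell, beside 8.83% and 8.99% of all genes. PAP17 (AT3G17790), an acid phosphatase, was at 6.06, 6.26, 6.14 and 6.57 in NL and 6.99, 6.76, 6.95 and 6.47 in HL, a response -1.23 ± 0.23 (adjusted p = 0.00375) relative to WT. Its rise in cyp20-3, 0.54 ± 0.17 (adjusted p = 0.0201), was lost without NL replicates 1 or 3 or HL replicates 1 or 3, each left out alone, and with a replicate block within genotype (adjusted p = 0.0575). SPX1 (AT5G20150), a phosphate sensor, was at 5.57, 5.85, 5.78 and 5.97 in NL and 5.44, 5.60, 5.94 and 5.61 in HL, not called in cyp20-3, with a response of -1.3 ± 0.26 (adjusted p = 0.0074) relative to WT, lost with a replicate block (adjusted p = 0.0583).

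Of 16 iron and copper genes 4 rose and 4 fell. NEET (AT5G51720), an iron-sulfur protein, was at 6.88, 6.73, 6.73 and 6.97 in NL and 8.51, 8.64, 8.76 and 8.58 in HL, and rose by 1.79 ± 0.13 (adjusted p = 1.34e-12). FER1 (AT5G01600), the leaf ferritin, which stores iron, was at 7.21, 6.80, 6.77 and 7.02 in NL and 8.35, 8.44, 8.01 and 8.37 in HL, and rose by 1.34 ± 0.16 (adjusted p = 1.38e-07), and FER4 (AT2G40300) rose by 0.69 ± 0.11. OPT3 (AT4G16370), which loads iron into phloem, was at 9.52, 10.05, 9.88 and 9.85 in NL and 8.80, 8.75, 8.98 and 8.71 in HL, and fell by 1.02 ± 0.11 (adjusted p = 2.66e-08). BTS (AT3G18290), an E3 ligase induced by iron shortage, was at 8.81, 9.36, 9.40 and 9.31 in NL and 8.27, 8.31, 8.33 and 8.19 in HL, and fell by 0.95 ± 0.13 (adjusted p = 1.76e-06). NEET, FER1 and FER4 were higher and OPT3 and BTS lower on each HL array, and FRO3 (AT1G23020), an iron reductase, also fell (-0.95 ± 0.18).

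The counts of the remaining lists stand beside the 8.83% of all genes that rose and the 8.99% that fell. Glucosinolate synthesis gave 1 rise, or 2 without NL replicate 4 or HL replicates 2 or 3, and 1 fall, or 2 without NL replicate 1, in 19, the fall being that of CYP83B1 (AT4G31500, -0.46 ± 0.09) of indolic glucosinolate synthesis. Gibberellin and brassinosteroid genes gave 0 rises, or 2 without NL replicate 3, and 1 fall, or 2 without NL replicate 4, in 15, the fall being that of CPD (AT5G05690, -0.34 ± 0.09), a brassinosteroid hydroxylase. The ribosome and nucleolus list gave 4 rises in 15, of which 2 were left without NL replicate 2 or HL replicate 3, and cold regulators 3 falls in 8. The shares of the last 2 were larger than those over all genes.

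Marker genes were read in the same fit. The mean log2 level of 6 leaf mesophyll markers lay between 9.60 and 9.71 on the NL arrays and between 9.64 and 9.86 on the HL arrays, and none was called. The mean of 8 root markers lay between 3.05 and 3.51 in NL and 3.06 and 3.23 in HL, and that of 8 flower and pollen markers between 1.99 and 2.11 and between 1.97 and 2.17. No root or floral marker rose, and PYK10 (AT3G09260), a root beta-glucosidase, fell by 0.66 ± 0.21 (adjusted p = 0.0267), a call lost without NL replicate 3 or HL replicate 2 or 3 and with a replicate block within genotype (adjusted p = 0.0586). Among 7 guard and myrosin cell markers KAT1 (AT5G46240), a guard cell potassium channel, was at 8.06, 8.15, 8.14 and 7.89 in NL and 8.92, 9.10, 9.03 and 8.99 in HL, and rose by 0.95 ± 0.11 (adjusted p = 4.32e-08), and MYB60 (AT1G08810), a guard cell factor, fell by 0.64 ± 0.16. Of 10 markers of dividing cells 3 fell, with 0 left without NL replicate 4 or HL replicate 3 and 1 left without NL replicate 3 or HL replicates 2 or 4. The part of any of these markers in the results was not tested.

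The calls of cyp20-3 and of the other genotypes overlapped in part. In WT, called in the same fit, 3009 genes were called in the same direction as in cyp20-3, which is 60.7% of the cyp20-3 calls and 54.5% of the WT calls, and 17 were called in opposite directions. With 2cysprx 1177 genes were shared, 23.7% of the cyp20-3 calls and 49.5% of those of 2cysprx. With oastlB 2279 were shared, 46% and 50.7%, and with serat2;1 1994, 40.2% and 62.6%. In all 5 genotypes 436 genes rose and 272 fell. These counts of calls carry no test of a difference between responses.

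That test called fewer genes. The response of cyp20-3 was higher than that of 2cysprx for 748 genes (2.69%) and lower for 513 (1.84%), and higher than that of oastlB for 369 (1.33%) and lower for 268 (0.963%). Some of these counts fell by over 1.5 times when 1 array was left out, which also leaves fewer arrays in a group. How much of each fall is due to fewer arrays was not tested. With all arrays 238 genes differed from WT, and the count was 131 without cyp20-3 NL replicate 1, 119 without cyp20-3 HL replicate 2, 120 without cyp20-3 HL replicate 4, 155 without WT NL replicate 3, 153 without WT NL replicate 4 and 155 without WT HL replicate 4. The count of 175 higher became 101, 88 and 95 without the 3 cyp20-3 arrays in that order. That of 63 lower became between 25 and 41 without NL replicates 1 or 2 or HL replicates 2 or 4 of cyp20-3, or NL replicates 1, 3 or 4 or HL replicates 3 or 4 of WT. The count lower than 2cysprx went from 513 to 337 without 2cysprx NL replicate 2. That lower than oastlB went from 268 to 174 without cyp20-3 NL replicate 2 or HL replicate 4 and 175 without oastlB HL replicate 4.

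**Figure D5:**
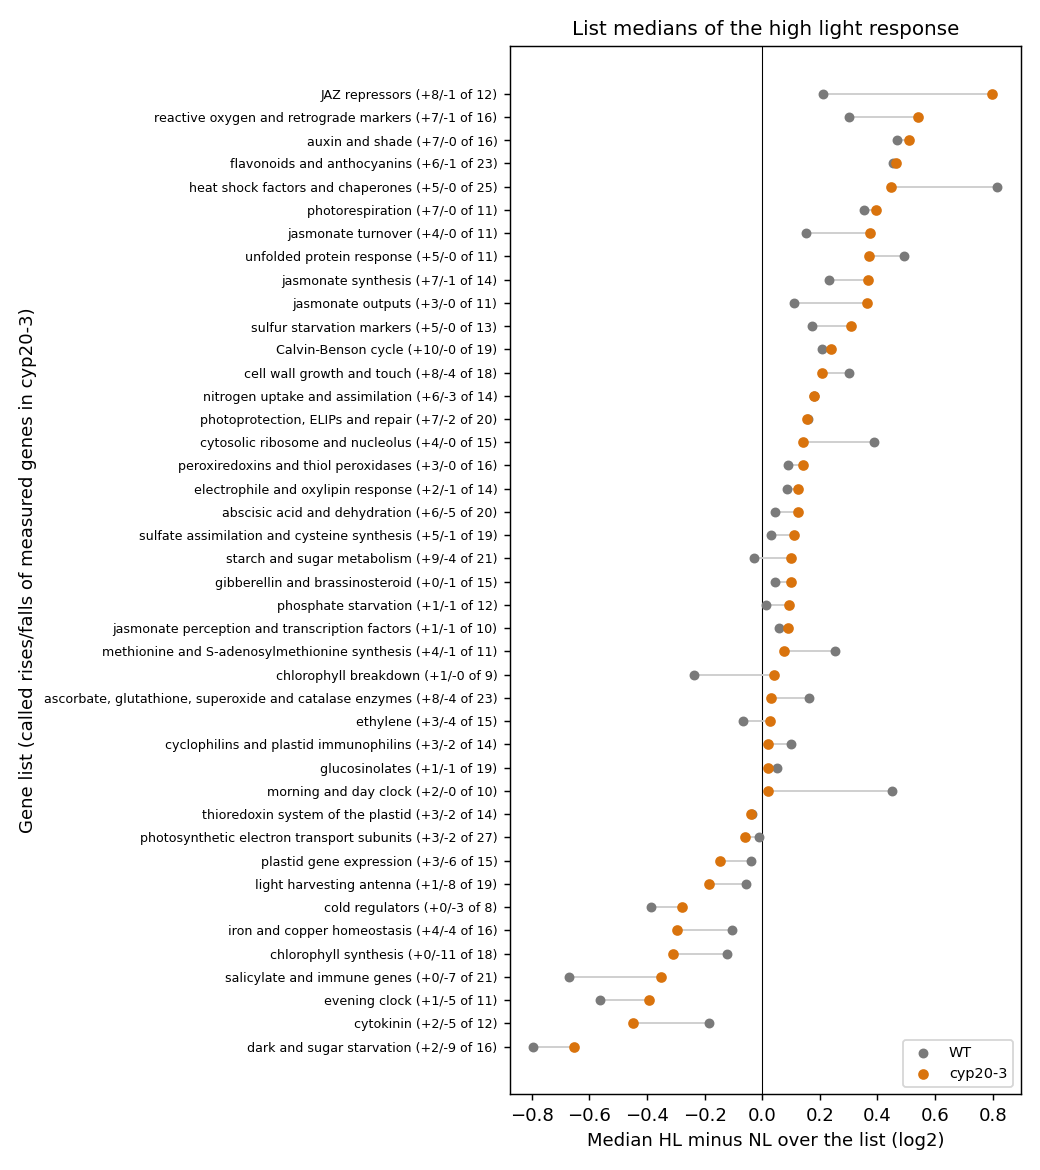
Median high light response (HL minus NL, log2) of 42 gene lists in cyp20-3 (orange) and WT (grey), sorted by the cyp20-3 median, with the number of called rises and falls of measured members in cyp20-3 beside each list name. JAZ repressors have the highest median in cyp20-3 (0.80) and dark and sugar starvation genes the lowest (-0.65), against a median of -0.03 over all genes.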

How the data were processed

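Total RNA from shoots of Arabidopsis thaliana was labelled with biotin and hybridised by the standard Affymetrix protocol, per the labels' protocols, 4 biological replicates in each of 10 groups. The authors deposited a table of log2 values, 1 value per gene locus and array, made with RMA per the submitters' processing notes. RMA corrects the background, normalizes between arrays and summarises probes, so the values are relative and only differences within a gene were read. Neither the array design nor the definition of its probe sets is named in the sources used here. The values were used as deposited, with no filter, for all 27826 loci. No 2 arrays held identical values, and correlations between arrays of a group were between 0.984 and 0.993.

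A linear model with a mean per group was fitted over all 40 arrays with limma 3.58.1 in R 4.3.3 (30 residual and 3.9 prior degrees of freedom), two-sided, with p-values adjusted by Benjamini-Hochberg over all loci and a call at an adjusted p under 0.05. The light response of cyp20-3 is HL minus NL, and the responses of WT, 2cysprx and oastlB were subtracted from it as contrasts of the same model. The procedure was tested on simulated data with known changes. Alternatives were array weights, renormalizing the values by quantiles or by cyclic loess, an intensity trend in the prior variance, only the brighter genes, only the arrays compared, 2 kinds of replicate block, and leaving out each array compared. RMA had already normalized the values between arrays, so renormalizing by quantiles could change little and is a weak check. It gave 4960 light calls against 4959. The number of arrays limits the precision, and p-values measure the spread between the labelled biological replicates.

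Symbols were taken from RefSeq's gene table for TAIR10.1, which holds 27241 of the 27826 loci and gives 10556 of them a symbol. Of 695 entries in the gene and marker lists, 660 matched by symbol, 12 carry another name there and 23 have no symbol there. The lists and the comparisons were chosen with earlier results of these data known. Genes were named by a rule. Among genes called in cyp20-3 whose 4 HL and 4 NL levels do not overlap, it takes the 20 largest rises and falls over all genes. From the same genes it takes the 3 largest in each direction in each list. With or without overlap, it adds every called member of the sulfate assimilation, peroxiredoxin, cyclophilin and jasmonate lists, and the targeted gene always. For each difference from another genotype it adds the 5 largest called in each direction and every list member called for that difference. These need no call in cyp20-3 itself. Not all genes that the rule selects are described. Of the 218 genes named, 68 lie outside the rule and were chosen after their values were seen.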

Additional observations from a re-analysis of the deposited data

Results flagged for a closer look

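A single array stood apart from the other 3 of its group in 25 of 436 groups of 4 levels examined, 2 groups for each of 218 genes. It was marked where its gap to the nearest value, divided by the range of the group, exceeded Dixon's critical value for groups of 4, which chance alone passes in about 1 of 20 groups. The levels are log2 intensities, each against the lowest and highest of the other 3 arrays. After HL, replicate 1 lay above the rest for MYC2 at 5.93 (others 5.55 to 5.60), EXPA15 at 5.27 (others 4.73 to 4.80) and 2CPB at 9.58 (others 9.27 to 9.32) and below the rest for LHCB4.3 at 5.68 (others 6.08 to 6.14), NTRC at 9.48 (others 9.56 to 9.57), APL1 at 9.74 (others 9.90 to 9.94) and SLAH3 at 8.45 (others 9.22 to 9.34). After HL, replicate 2 lay above the rest for ABI1 at 6.74 (others 6.62 to 6.63). After HL, replicate 3 lay below the rest for MYC4 at 4.38 (others 4.55 to 4.57). After HL, replicate 4 lay below the rest for APX1 at 8.34 (others 8.38 to 8.39) and APR3 at 8.74 (others 9.02 to 9.05). In NL, replicate 1 lay above the rest for OPR2 at 4.42 (others 4.08 to 4.11) and RD22 at 10.72 (others 10.60 to 10.61) and below the rest for RBCS1A at 13.69 (others all 13.81), JAZ3 at 6.47 (others 6.66 to 6.69) and BTS at 8.81 (others 9.31 to 9.40). In NL, replicate 2 lay below the rest for CHLD at 10.44 (others 10.48 to 10.49), AGT at 11.20 (others 11.26 to 11.28), FER4 at 6.59 (others 6.83 to 6.88) and HSP18.2 at 2.27 (others 3.14 to 3.29). In NL, replicate 3 lay above the rest for TRXF2 at 7.99 (others 7.78 to 7.82). In NL, replicate 4 lay above the rest for JAZ6 at 7.56 (others 7.09 to 7.16), RD20 at 6.23 (others 5.56 to 5.63) and AT5G05600 at 2.98 (others 2.17 to 2.27) and below the rest for CYP38 at 10.45 (others 10.57 to 10.59).

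Among the named genes set against another genotype, 61 differences between light responses passed the limma test at an adjusted p under 0.05, adjusted over 27826 genes by Benjamini-Hochberg. They are given as the HL minus NL difference of cyp20-3 less that of the other line, in log2 units, with the standard error. Against WT, the response of cyp20-3 was the higher for WRKY18 (2.66 ± 0.33), SLAH3 (2.26 ± 0.26), XTH22 (2.15 ± 0.28), EXO (2.07 ± 0.34), DIN10 (1.92 ± 0.28) and TPS8 (1.68 ± 0.26). At smaller estimates, it was also higher than that of WT for JAZ7 (1.54 ± 0.34), XTH24 (1.46 ± 0.20), STP1 (1.06 ± 0.16), XTH9 (0.86 ± 0.18), JAZ2 (0.80 ± 0.16) and NRT1.1 (0.66 ± 0.12). It was lower than that of WT for HSFA2 (-2.58 ± 0.61), MBF1C (-2.06 ± 0.39), PRR9 (-1.79 ± 0.29), RVE7 (-1.5 ± 0.28), SPX1 (-1.3 ± 0.26), PAP17 (-1.23 ± 0.23) and EXPA15 (-1.12 ± 0.24). Against 2cysprx, the response of cyp20-3 was the higher for GPT2 (3.82 ± 0.37), WRKY18 (2.79 ± 0.33), EXO (2.78 ± 0.34), SLAH3 (2.63 ± 0.26), XTH22 (2.60 ± 0.28), JAZ7 (1.87 ± 0.34), LOX4 (1.59 ± 0.26), GBSS1 (1.57 ± 0.27), XTH33 (1.56 ± 0.32), NIA2 (1.51 ± 0.15) and XTH24 (1.5 ± 0.20). At smaller estimates, it was also higher than that of 2cysprx for CHS (1.49 ± 0.23), JAZ10 (1.48 ± 0.40), LSU2 (1.43 ± 0.33), CML24 (1.32 ± 0.36), XTH9 (1.25 ± 0.18), JAZ6 (1.23 ± 0.19), JAZ5 (1.15 ± 0.26), JAZ9 (1.09 ± 0.27), APR2 (0.98 ± 0.16) and JAZ2 (0.62 ± 0.16). It was lower than that of 2cysprx for IAA29 (-1.47 ± 0.26), PORA (-1.47 ± 0.34), RD29A (-1.32 ± 0.19), EXPA8 (-1.05 ± 0.20), LHCB1.4 (-0.79 ± 0.16), EXPA11 (-0.76 ± 0.17) and EXPA1 (-0.52 ± 0.16). Against oastlB, the response of cyp20-3 was the higher for EXO (2.71 ± 0.34), WRKY18 (2.63 ± 0.33), XTH22 (2.59 ± 0.28), DIN10 (2.47 ± 0.28) and SLAH3 (2.3 ± 0.26). At smaller estimates, it was also higher than that of oastlB for JAZ7 (1.53 ± 0.34), XTH24 (1.53 ± 0.20), XTH33 (1.34 ± 0.32), XTH9 (0.81 ± 0.18) and NIA2 (0.79 ± 0.15). It was lower than that of oastlB for HSP90.1 (-2.33 ± 0.56), RD29A (-1.18 ± 0.19), JAR1 (-0.49 ± 0.11) and JAZ12 (-0.41 ± 0.11).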

How the results depend on the processing

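Over the alternatives other than leaving out an array, the light response of cyp20-3 gave between 4303 and 5830 calls against 4959, within 1.5 times of it. With only the arrays compared, called differences from WT went from 238 to 142 (lower from 63 to 20), from 2cysprx lower from 513 to 306, and from oastlB from 637 to 395 (lower from 268 to 145). That fit has fewer residual degrees of freedom by construction. Among only the brighter genes, 439 were lower than in oastlB, and this alternative tests fewer genes. The deviations of same-numbered NL and HL arrays of cyp20-3 had correlations of -0.017 to 0.045, and those of differently numbered arrays -0.053 to 0.031. Whether the numbers mark samples handled together was not tested. A replicate block within genotype gave 4579 light calls (2287 higher, 2292 lower), 33 lower than in WT and 167 lower than in oastlB, and a block shared by genotypes gave 5054 light calls. The cause was not tested. Leaving out 1 array gave between 4068 and 4453 light calls (higher 2019 to 2216, lower 2025 to 2237), 119 to 204 differences from WT (higher 88 to 157, lower 25 to 58), 933 to 1333 from 2cysprx (higher 574 to 776, lower 337 to 557) and 443 to 619 from oastlB (higher 269 to 367, lower 174 to 255). The differences from WT fell by over 1.5 times without NL replicate 1 (131), HL replicate 2 (119) or HL replicate 4 (120) of cyp20-3, without WT NL replicate 3 (155) or 4 (153), and without WT HL replicate 4 (155). Among the named genes, 112 values lost their call, 17 gained one and 4885 kept direction and call. Those that turned sign were never called and lay near 0: CYP20-3 at -0.003 with array weights, SIR at 0.009 with cyclic loess, and, in the range over leaving out 1 array, BZIP60 (-0.007 to 0.12), SERAT2;1 (-0.18 to 0.054), RBCS1A (0.00 to 0.04), SULTR1;2 (-0.14 to 0.033), SULTR2;1 (-0.023 to 0.193), SULTR4;1 (-0.022 to 0.266), APX2 (-0.17 to 0.024), 2CPA (-0.01 to 0.094), WRKY70 (-0.012 to 0.12), CYP20-3 (-0.10 to 0.17), XTH23 (-0.16 to 0.062), SIR (-0.045 to 0.026) and 2CPB (-0.039 to 0.085).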
